A study of Rattus norvegicus with 23 samples.

Results

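The genes described are 10 genes of the rat major histocompatibility complex (MHC, called RT1 in the rat) and its antigen presentation pathway, measured in the area postrema, a chemosensory organ in the floor of the fourth ventricle. They are the class II chains RT1-Ba, RT1-Bb and RT1-Da, the invariant chain Cd74, the class I heavy chains RT1-CE16, RT1-CE12, RT1-CE10 and RT1-CE5, the class I light chain B2m and the immunoproteasome subunit Psmb8. Every probe set whose only gene symbol was 1 of these names was taken, which gave 19 probe sets of 10 genes, out of 14218 genes that have a single-symbol probe set on the Affymetrix Rat Genome 230 2.0 array. RT1-CE5 had 5 probe sets, RT1-Ba had 4, RT1-Bb and B2m had 2 each, and the other 6 genes had 1 each.

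The series holds 23 arrays of male rats, and each array was hybridised with RNA pooled from 5 animals. The spontaneously hypertensive rat (SHR, an inbred strain that develops high blood pressure, 5 arrays) and the Wistar Kyoto rat (WKY, its usual normotensive comparison strain, 5 arrays) were 10 to 13 weeks old. Sprague Dawley rats (SD, an outbred stock) were 10 to 12 weeks old. Of these, 4 arrays held untreated controls, 5 held rats after 48 h without food and 4 held rats after 72 h without water. The SHR and WKY arrays carry a different label text from the SD arrays, so that for any difference between these strains and SD, strain and array series cannot be told apart. Not all control arrays share a label text with the fasted and dehydrated arrays. In comparisons of these groups with control, treatment and array series therefore cannot be fully told apart. All p-values rest on the spread between pools, which averages over the animals in each.

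MHC class I molecules are pairs of a heavy chain and B2m that show peptides from inside the cell to CD8 T cells, and almost every nucleated cell can make them. Class II molecules are pairs of an alpha and a beta chain that show peptides from taken-up protein to CD4 T cells. They are made mainly by professional antigen presenting cells, which in the brain are above all perivascular and meningeal macrophages, dendritic cells and activated microglia. RT1-Ba and RT1-Bb code for the alpha and beta chain of RT1-B, the rat counterpart of human HLA-DQ, and RT1-Da codes for the alpha chain of RT1-D, the counterpart of HLA-DR. Cd74 binds new class II pairs and keeps their groove closed until they reach the endosome, and Psmb8 (LMP7) replaces a catalytic subunit of the proteasome in cells exposed to interferon gamma. RT1 haplotypes differ between rat strains in sequence and in the number of class I genes. Class I probes may also pick up closely related heavy chains, and a probe made for 1 haplotype may bind another less well, so that the gene behind a class I signal is uncertain.

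Class II genes and the invariant chain share a promoter module, the X and Y boxes, that is read by the RFX and NF-Y factors and the coactivator CIITA. Class I genes and B2m carry a related module beside a site for interferon response factors. The promoters of 7 of the genes are shown because their letters let these modules be compared between genes whose signals differed. They are RefSeq sequence of the GRCr8 assembly, which is of another rat strain (BN), from position -150 to position 6 relative to the annotated start, 5' to 3' on the strand of the gene. Capitals mark the motifs that were searched on both strands: CCAAT (Y box), GCAAC (core of the X1 box), TGACG (core of the X2 box) and GAAA followed after any 2 bases by GAAA (interferon-stimulated response element). The RT1-Ba window is chr20:4576907-4577062 (plus strand), RT1-Da is chr20:4515265-4515420 (plus strand), RT1-Bb is chr20:4604113-4604268 (minus strand), RT1-CE16 is chr20:3265438-3265593 (minus strand), RT1-CE5 is chr20:3484085-3484240 (minus strand), B2m is chr3:129549180-129549335 (plus strand) and Psmb8 is chr20:4657026-4657181 (minus strand).
RT1-Ba: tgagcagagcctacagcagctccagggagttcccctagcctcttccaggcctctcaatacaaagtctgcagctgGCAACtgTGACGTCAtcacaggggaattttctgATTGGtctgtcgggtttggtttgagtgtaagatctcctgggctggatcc
RT1-Da: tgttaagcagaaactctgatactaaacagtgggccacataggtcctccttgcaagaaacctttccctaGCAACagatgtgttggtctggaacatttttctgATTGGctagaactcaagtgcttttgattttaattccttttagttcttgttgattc
RT1-Bb: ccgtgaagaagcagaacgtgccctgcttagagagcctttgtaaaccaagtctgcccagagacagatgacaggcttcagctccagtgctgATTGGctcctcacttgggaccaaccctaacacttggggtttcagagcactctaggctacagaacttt
RT1-CE16: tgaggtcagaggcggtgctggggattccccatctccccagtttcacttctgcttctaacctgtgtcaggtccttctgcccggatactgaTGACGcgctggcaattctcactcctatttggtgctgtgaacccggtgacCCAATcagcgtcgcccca
RT1-CE5: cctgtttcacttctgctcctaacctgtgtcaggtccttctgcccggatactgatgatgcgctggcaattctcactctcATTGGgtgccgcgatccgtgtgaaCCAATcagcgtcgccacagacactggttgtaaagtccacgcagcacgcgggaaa
B2m: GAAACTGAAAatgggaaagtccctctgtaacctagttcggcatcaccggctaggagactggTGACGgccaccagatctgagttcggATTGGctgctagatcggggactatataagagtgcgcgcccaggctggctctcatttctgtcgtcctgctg
Psmb8: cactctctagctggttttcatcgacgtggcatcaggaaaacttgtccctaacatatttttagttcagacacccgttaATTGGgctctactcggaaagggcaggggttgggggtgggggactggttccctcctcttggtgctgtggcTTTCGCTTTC

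In RT1-Ba and RT1-Da the X1 core and the Y box, here read as ATTGG, started 33 bases apart, at positions -76 and -43 in RT1-Ba and at -82 and -49 in RT1-Da. GCAAC followed by ATTGG at that distance, on either strand, was found in 17 of the 33469 promoters of the table, a share of 0.0508%. RT1-Bb held the Y box at -61 without an X1 or X2 core in these letters. Over all 10 genes and windows of 250 bases before to 50 after the start, CCAAT was found in 9, against 37.5% of all promoters, GCAAC in 5 against 35.1%, and TGACG in 3 (RT1-Ba, RT1-CE16 and B2m) against 21.2%. In RT1-Ba, TGACG at -69 overlapped its own reverse complement at -66. The interferon element was found in B2m at -150 and, on the opposite strand, in Psmb8 at -4, and in 3.92% of all promoters. The class I promoters were close copies: RT1-CE16 and RT1-CE5 were identical at 229 of 261 aligned bases (87.7%), RT1-CE16 and RT1-CE10 at 204 of 235 (86.8%), and RT1-CE10 and RT1-CE5 at 227 of 274 (82.8%). The RT1-CE12 window aligned to these over no more than 83 bases. The motifs were chosen with the sequences in view, and a match is a match of letters only.

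Signal was analysed as log2(signal + 16) with limma, and folds are on that scale, so that they understate ratios at dim probe sets. Calls are at a Benjamini-Hochberg adjusted p below 0.05 over the 18625 probe sets that passed a filter on mean signal. In SHR against WKY, 14 of the 19 MHC probe sets passed this filter, 5 (4 of RT1-CE5 and 1 of RT1-Bb) did not, and 9 probe sets of 8 genes were called, 3 higher and 6 lower in SHR. Of the 9, RT1-Ba 1377334_at (mean 8.5 in WKY) and RT1-Bb 1371033_at (mean 12.8 in SHR) passed the filter only through the strain where they were high. Both also count in the median and the overlap share that follow, which rest in part on that selection. Of all tested probe sets 5.06% were called, 2.17% higher and 2.88% lower in SHR. The median size of the difference was 0.36 log2 over the 14 tested probe sets and 0.09 over all probe sets. For 9 of the 14 tested probe sets every SHR array lay on 1 side of every WKY array, against 6.33% of all tested, and the same held for 3 of the 5 below the filter. In fasted against control and in dehydrated against control no MHC probe set was called, where 0.0215% and 0.166% of all tested probe sets were called.

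The largest class II difference between SHR and WKY lay at 1 of the 4 probe sets of RT1-Ba, and the other 3 did not share it. At probe set 1377334_at the SHR arrays read 101.9, 96.3, 61.9, 59.4 and 77.9, and the WKY arrays read 2.6, 5.3, 3.2, 14.4 and 17.0. The SD signals were 84.1 to 115.2 in control, 57.5 to 100.6 in fasted and 50.9 to 91.8 in dehydrated arrays. WKY was therefore the group that stood apart, with every WKY array below every other array of the series. SHR exceeded WKY by 1.98 log2 (SE 0.175, 95% interval 1.61 to 2.35, 3.95-fold, adjusted p = 2.14e-06). At probe set 1370822_at the SHR arrays read 64.5, 88.2, 55.4, 47.7 and 69.2, and the WKY arrays 75.0, 116.9, 78.9, 101.8 and 71.8. The strains overlapped there, and the difference had the opposite sign (-0.37 log2, adjusted p = 0.149); it was called without SHR array 2 (-0.47, adjusted p = 0.0416). Probe sets 1381593_x_at (-0.30, 95% interval -0.78 to 0.17) and 1392334_at (-0.12, 95% interval -0.44 to 0.20) were not called either. The 4 probe sets thus disagree on the level of RT1-Ba in WKY, and whether the bases under probe set 1377334_at differ in WKY was not tested. With a pseudocount of 64 the difference at 1377334_at was 0.98. The mean of this probe set over the SHR and WKY arrays lay close to the filter. With single SHR arrays left out, among them 1, 2 and 3, it fell below and was not tested.

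RT1-Bb, the beta chain partner of RT1-Ba, was lower in SHR at the 1 of its probe sets that passed the filter, opposite to RT1-Ba 1377334_at. The other 3 RT1-Ba probe sets were also lower in SHR by their means, and were not called. At probe set 1371033_at the SHR arrays read 11.4, 8.8, 12.3, 12.6 and 18.7, and the WKY arrays read 70.6, 72.1, 57.7, 49.9 and 44.8. The SD arrays lay above SHR and reached the lower WKY arrays, at 22.0 to 49.5 in control, 22.7 to 45.0 in fasted and 29.7 to 37.1 in dehydrated rats. Here SHR was the group that stood apart, with every SHR array below every array of the other groups. SHR was lower than WKY by 1.38 log2 (difference -1.38, SE 0.126, 2.60-fold, adjusted p = 1.92e-06), and by 0.87 than SD control (difference -0.87, adjusted p = 0.000103). The other RT1-Bb probe set, 1371065_at, was dim and below the filter: SHR arrays read 15.5 to 30.8, WKY arrays 2.2 to 25.0 and control arrays 5.7 to 14.1. Its order was reversed, with the mean of SHR (23.8 ± 7.6, SD, n = 5) above that of WKY (12.4 ± 9.5, SD, n = 5), and without the filter it was not called (adjusted p = 0.281). With a pseudocount of 64 the difference at 1371033_at was -0.68. The mean of this probe set over the SHR and WKY arrays also lay close to the filter. Leaving out a WKY array lowers that mean, so whether it was tested depended on the WKY arrays kept.

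**Figure D1:**
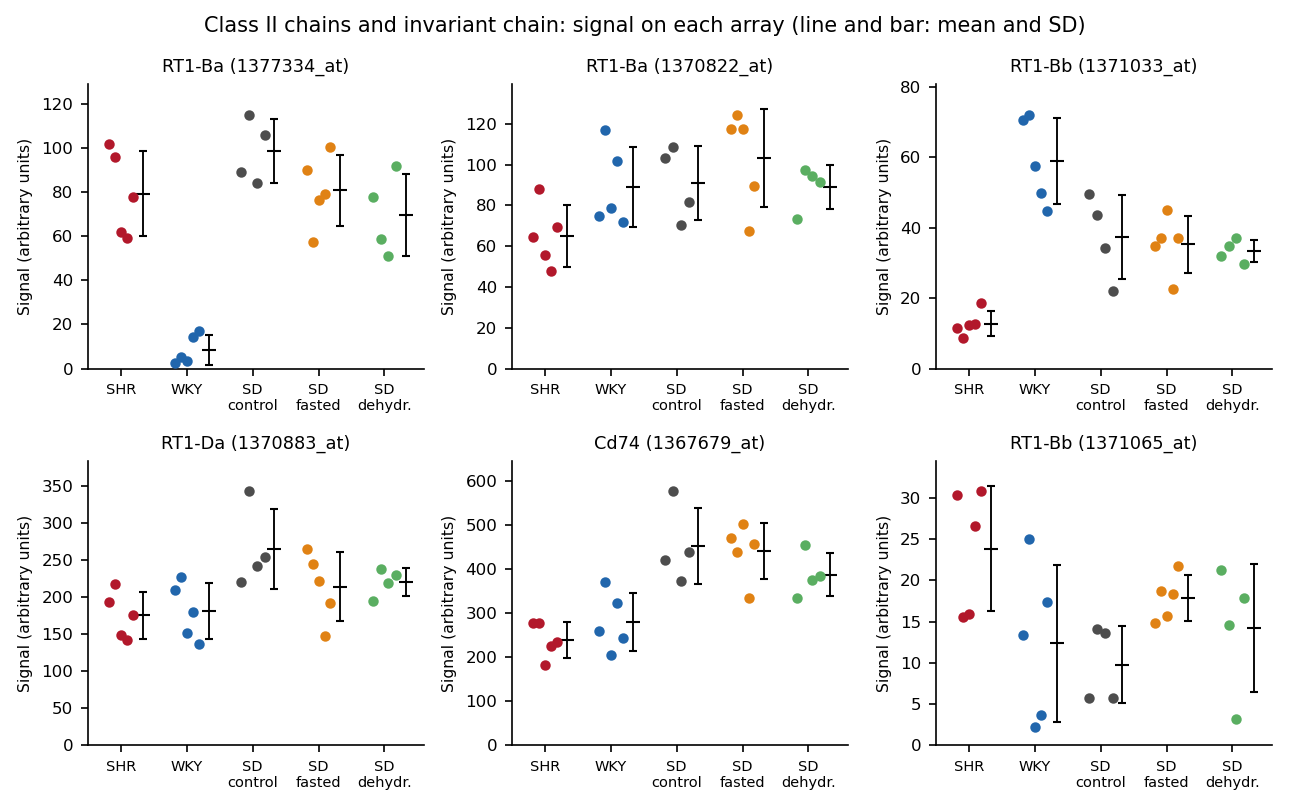
Signal of 6 class II and Cd74 probe sets on each of the 23 arrays; points are arrays, the line and bar beside them are the group mean and SD, and each vertical axis starts at 0 in arbitrary signal units. WKY stands apart at RT1-Ba probe set 1377334_at (2.6 to 17.0) and SHR at RT1-Bb probe set 1371033_at (8.8 to 18.7), while RT1-Da and Cd74 overlap between these strains.

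The other class II chain and the invariant chain did not separate SHR from WKY. RT1-Da read 193.2, 218.2, 148.7, 141.5 and 175.5 in SHR and 209.4, 227.5, 151.6, 179.9 and 137.1 in WKY. The strains overlapped, and the difference was -0.04 log2 with a 95% interval from -0.32 to 0.25 (adjusted p = 0.934). Cd74 read 276.9, 277.2, 181.3, 224.1 and 234.1 in SHR and 258.4, 371.8, 204.5, 322.5 and 244.1 in WKY. The interval of its difference ran from -0.52 to 0.11 (-0.20 log2, adjusted p = 0.542). Both genes varied together among pools: after removal of the group means, the correlation of Cd74 over the 23 arrays was 0.78 with RT1-Da and 0.77 with RT1-Ba probe set 1370822_at, but 0.32 with RT1-Ba probe set 1377334_at and 0.31 with RT1-Bb probe set 1371033_at. RT1-Da was the probe set most like Cd74 of all 18625, and the 5 genes outside the 10 described that were most like it were RT1-Db1 (r = 0.78), Dapl1 (0.77), Cxxc5 (0.75), Stab1 (0.74) and P2rx2 (0.73). These correlations describe pools that share tissue makeup and chip processing.

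Cd74 and RT1-Da were lower in both hypertensive and normotensive inbred strains than in SD control rats. The 4 control arrays read 421.5, 576.8, 372.7 and 439.8 for Cd74, above every SHR and WKY array. Against SD control, Cd74 was lower by 0.88 log2 in SHR (difference -0.88, SE 0.151, adjusted p = 0.000192) and by 0.67 in WKY (difference -0.67, SE 0.151, adjusted p = 0.00262). RT1-Da read 221.1, 343.2, 242.1 and 254.4 in control arrays, which was above every SHR array and overlapped WKY. Its differences were -0.55 in SHR (adjusted p = 0.0124) and -0.52 in WKY (adjusted p = 0.0195). The RT1-Da call was lost without control array 2 in both strains (adjusted p = 0.0605 and 0.0899) and, in WKY, without WKY array 3 (0.0514) or 5 (0.0568). With only control arrays 3 and 4, which share a label text with the treated SD arrays, adjusted p was 0.0799 in SHR and 0.108 in WKY for RT1-Da, and 0.0545 in WKY for Cd74.

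The class I heavy chain signals split into 1 probe set that was high in SHR and a group that was high in WKY. RT1-CE16 (1370463_x_at) read 236.3, 258.9, 199.5, 229.3 and 204.6 in SHR and 36.9, 56.0, 41.5, 58.6 and 42.6 in WKY. All SD arrays were below the lowest WKY array, at 13.7 to 31.3 in control, 12.4 to 36.6 in fasted and 9.2 to 33.8 in dehydrated rats. The groups SHR and WKY did not overlap, and SHR was higher by 1.94 log2 (SE 0.103, 95% interval 1.73 to 2.16, 3.85-fold, adjusted p = 1.38e-09). Against SD control, SHR was higher by 2.66 log2 (6.33-fold, adjusted p = 1.25e-10) and WKY by 0.72 (1.65-fold, adjusted p = 0.0103). The WKY call was lost without control array 4 (adjusted p = 0.0522) and with the 3' to 5' ratio of the Gapdh controls, a measure of RNA integrity, as a covariate (0.0905).

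RT1-CE5 showed the reverse order. At probe set 1370972_x_at the SHR arrays read 43.7, 42.6, 47.9, 32.8 and 45.4, and the WKY arrays 119.1, 74.2, 119.7, 98.1 and 104.7. The SD control arrays read 41.1, 21.9, 33.8 and 54.2, close to SHR. WKY was above every other array of the series, and SHR was lower than WKY by 1.02 log2 (difference -1.02, SE 0.114, 2.02-fold, adjusted p = 1.51e-05). WKY exceeded SD control by 1.17 log2 (adjusted p = 3.89e-06), while SHR differed from it by 0.15 (95% interval -0.18 to 0.48). The other 4 RT1-CE5 probe sets lay below the filter. Probe set 1371209_at read 0.7 to 5.3 in SHR and 28.4 to 43.0 in WKY, and 1388255_x_at read 0.3 to 4.0 and 24.4 to 49.4. Probe set 1371210_s_at read 0.5 to 11.1 in SHR and 14.0 to 25.9 in WKY, and 1388254_a_at stayed at 10.2 or below on every array. Without the filter the first 3 of these were called lower in SHR (adjusted p = 4.24e-06, 9.03e-06 and 0.0203), and 1388254_a_at was not (0.553). All 5 probe sets of RT1-CE5 thus had a higher mean in WKY than in SHR.

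RT1-CE10 and RT1-CE12 were also higher in WKY than in SHR, by less. RT1-CE10 (1388203_x_at) read 39.6, 23.4, 36.2, 37.4 and 38.6 in SHR and 71.9, 58.4, 48.3, 50.4 and 67.1 in WKY. The strains did not overlap (difference -0.56 log2, SE 0.119, adjusted p = 0.00772), and the SD control arrays, at 36.9 to 54.6, overlapped both. RT1-CE12 (1388236_x_at) read 234.4, 219.6, 216.9, 274.5 and 264.1 in SHR and 299.3, 295.6, 390.7, 276.8 and 317.0 in WKY. The gap between the highest SHR and the lowest WKY array was small, and control arrays spread from 161.8 to 325.1. The RT1-CE12 difference was -0.36 log2 (SE 0.089, adjusted p = 0.0228). This call was lost without the filter (adjusted p = 0.0536), with plain eBayes (0.0549), with all 23 arrays in 1 model (0.243), and without SHR array 1 (0.0546), 2 (0.0504) or 3 (0.0695) or WKY array 3 (0.0556) or 5 (0.0523).

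B2m, the light chain that every class I heavy chain needs, was slightly lower in SHR than in WKY at both of its probe sets. Probe set 1367595_s_at read 2520.6, 2617.3, 2460.0, 2569.3 and 2567.2 in SHR and 3459.5, 3083.3, 2766.7, 2880.3 and 2758.3 in WKY. Probe set 1371440_at read 700.2, 709.3, 648.1, 640.1 and 648.7 in SHR and 897.8, 810.9, 738.5, 757.5 and 731.2 in WKY. Neither pair of groups overlapped. The differences were -0.22 log2 (SE 0.0591, 1.17-fold, adjusted p = 0.0338) and -0.23 (SE 0.0625, 1.17-fold, adjusted p = 0.0447). Both calls were close to the threshold: adjusted p was 0.0597 and 0.0751 without the filter, 0.121 and 0.116 with plain eBayes, and 0.0874 and 0.138 with the Gapdh ratio as a covariate, and at 1371440_at it was 0.0519 with array weights and 0.0602 with all 23 arrays in 1 model. Both were lost without SHR array 1 (0.0704 and 0.0555), 3 (0.0921 and 0.11), 4 (0.054 and 0.0992) or 5 (0.0585 and 0.0952), or WKY array 1 (0.063 and 0.115) or 2 (0.0857 and 0.103), and 1371440_at also without WKY array 4 (0.058).

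Against SD control, B2m was higher in WKY by 0.20 log2 at 1367595_s_at (adjusted p = 0.0276) and by 0.26 at 1371440_at (adjusted p = 0.0139), with no overlap. The control arrays read 2574.7, 2622.4, 2538.7 and 2644.8 at the first probe set and 574.2, 646.9, 698.5 and 700.7 at the second. SHR did not separate from control (-0.03, 95% interval -0.16 to 0.10, and 0.03, 95% interval -0.12 to 0.19). Under quantile normalization the first of these turned to 0.18 and was called (adjusted p = 0.0134). Both WKY calls were lost without WKY array 1 (adjusted p = 0.0993 and 0.0507), without control array 1 (0.0547 and 0.0733), with only control arrays 3 and 4 (0.107 and 0.242) and with the Gapdh ratio as a covariate (0.212 and 0.147). That at 1367595_s_at was also lost without WKY array 2 (0.0615), without control array 3 (0.0648) and with plain eBayes (0.0601). Outside the group means, the probe sets most like B2m 1367595_s_at were those of Ckb (r = 0.80), Calm2 (0.80), Rras (0.75), Mrps21 (0.75) and Tiparp (0.75), and its own second probe set had r = 0.61.

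Psmb8, which helps cut the peptides that class I molecules show, was higher in SHR than in WKY and in SD control. Its arrays read 99.8, 100.2, 79.1, 101.9 and 92.5 in SHR and 64.2, 62.6, 69.2, 64.4 and 69.1 in WKY. The control arrays, at 67.8, 78.1, 53.7 and 75.6, lay with WKY, and every SHR array was above them. SHR was higher than WKY by 0.43 log2 (SE 0.0825, 1.35-fold, adjusted p = 0.00355) and higher than SD control by 0.39 (SE 0.113, 1.31-fold, adjusted p = 0.0145); the latter call was lost without control array 3 (adjusted p = 0.0783). WKY differed from control by -0.04 (95% interval -0.27 to 0.19).

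**Figure D2:**
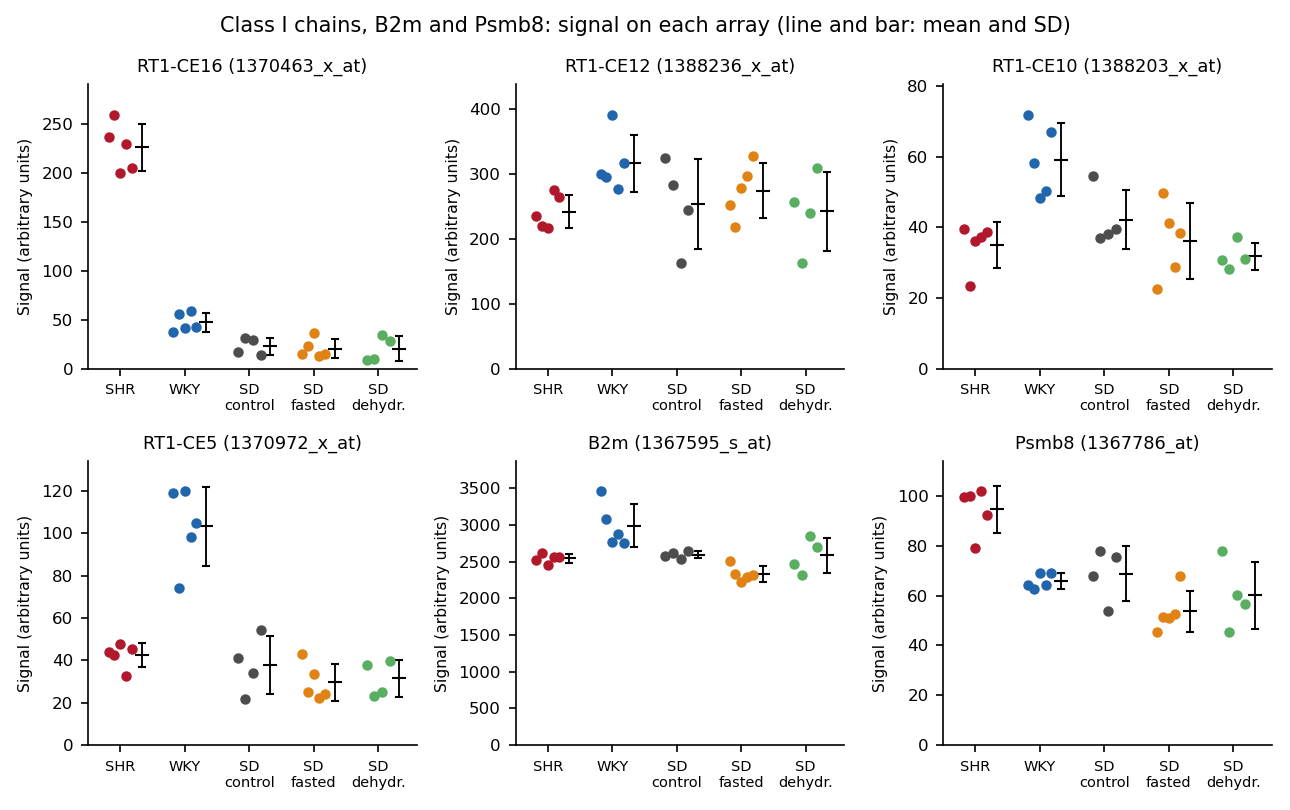
Signal of 4 class I heavy chain probe sets, B2m and Psmb8 on each of the 23 arrays; points are arrays, the line and bar beside them are the group mean and SD, and each vertical axis starts at 0 in arbitrary signal units. RT1-CE16 is high in SHR (199.5 to 258.9), RT1-CE5 is high in WKY (74.2 to 119.7), and the SD groups overlap each other at every gene but B2m, whose fasted arrays lie below control.

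**Figure D3:**
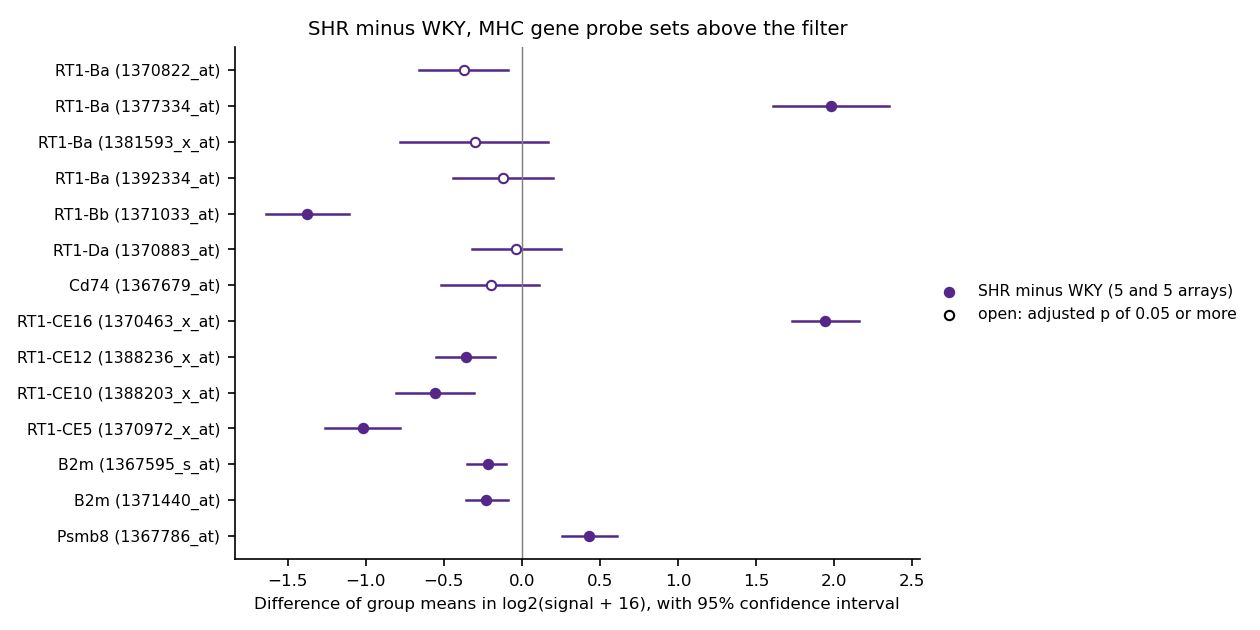
SHR minus WKY in log2(signal + 16) for the 14 MHC probe sets above the filter, with 95% confidence intervals; filled points have an adjusted p below 0.05. RT1-Ba 1377334_at (1.98) and RT1-CE16 (1.94) lie to the right, RT1-Bb 1371033_at (-1.38) and RT1-CE5 1370972_x_at (-1.02) to the left, and the other calls are within 0.56 of 0.

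In the comparisons with SD control as a whole, 5 of the 14 tested MHC probe sets were called in SHR, 2 higher and 3 lower, where 19.9% of all tested probe sets were called (9.43% higher and 10.4% lower). In WKY 8 were called, 5 higher and 3 lower, where 18.7% of all were called (8.77% higher and 9.92% lower). The median size over the 14 was 0.34 in SHR and 0.35 in WKY, against 0.15 over all probe sets in each. RT1-CE16 (mean 22.7 in control) did not pass the filter in the SD fit, and passed here through the SHR and WKY arrays. RT1-Ba 1377334_at (mean 8.5 in WKY) and RT1-Bb 1371033_at (mean 12.8 in SHR) passed through the groups where they were high. These counts and medians rest in part on that selection. Both comparisons use the same 4 control arrays. The remaining calls were RT1-Ba 1377334_at, lower in WKY by 2.26 log2 (difference -2.26, adjusted p = 3.44e-10), and RT1-Bb 1371033_at, higher in WKY by 0.51 (adjusted p = 0.0167); the latter was lost without WKY array 2 (0.0513) or control array 4 (0.11).

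Other genes of the pathway were read from lists by role. Of 14 genes of class I peptide supply and loading (among them Tap1, Tap2, Tapbp and the immunoproteasome subunits Psmb9 and Psmb10), 9 were tested in SHR against WKY and none was called by limma, with 1 at an unadjusted p below 0.05. That was Psmb9, another immunoproteasome subunit, at 131.2 in SHR and 152.2 in WKY (-0.20 log2, adjusted p = 0.204), a sign opposite to that of Psmb8. Of 14 genes of class II loading, 10 were tested and 2 were lower in SHR. They were RT1-DMa, a chain of the peptide exchange factor DM (87.6 against 131.6, -0.51 log2, adjusted p = 0.00246), and Ctss, the protease cathepsin S that trims the invariant chain (1338.3 against 1554.6, -0.21, adjusted p = 0.0142). The median over these 10 genes was -0.11 log2, and over all probe sets it was 0.01. Of 12 genes of interferon gamma signalling, 9 were tested, none was called and 1 (Irf8, -0.24, adjusted p = 0.239) had an unadjusted p below 0.05. The cytokine gene Ifng itself had a mean below 20 in every group.

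Among the cells that make these molecules, some microglia and macrophage markers differed between SHR and WKY. Of the perivascular macrophage and dendritic markers only 2 were tested (Lyve1 and Mrc1), too few for a contrast, and neither was called. Of 14 microglia and macrophage markers 13 were on the array and 11 were tested. All 11 were lower in SHR than in WKY by their means, with a median of -0.23 log2. Of these, 3 were called, where 5.06% of all tested probe sets were called: C1qa (-0.35), Aif1 (-0.39) and C1qc (-0.41). The other tested probe set of Aif1 read 53.7 in SHR and 56.9 in WKY and was not called (-0.08 log2, adjusted p = 0.822). The sum of the 13 marker signals ran from 1720.9 to 2368.4 in SHR and from 2353.0 to 2672.8 in WKY, against 1589.0 to 1716.3 in control, 1485.7 to 1662.2 in fasted and 1310.8 to 1717.9 in dehydrated arrays. In SHR against WKY the mean of this sum was lower in SHR (2031.6 against 2522.5), as were B2m, RT1-DMa and RT1-CE5 1370972_x_at, and its part in those results was not tested. The lowest SHR sum (1720.9) was just above the highest control sum (1716.3), in a comparison where strain and array series cannot be told apart. B2m, RT1-DMa and RT1-CE5 1370972_x_at were not called between SHR and SD control. In WKY the mean sum was also above control (2522.5 against 1654.5), with the same limit of strain and array series. There B2m (0.20 and 0.26 log2), RT1-DMa (0.37) and RT1-CE5 1370972_x_at (1.17) were called higher than in control. The part of the marker sum in these comparisons with control was not tested either. In bulk tissue, fewer cells of a type and less RNA per cell cannot be told apart. Of 9 fibroblast and meningeal markers 8 were tested and 3 were lower in SHR (Fmod, Col1a2 and Igf2), and their sum ran from 2346.4 to 3049.6 in SHR and from 3345.2 to 4112.9 in WKY.

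Of 8 perivascular macrophage and dendritic markers 6 were on the array. Their sums overlapped between SHR (114.1 to 188.8) and WKY (149.2 to 169.6), and the dendritic cell markers Itgax and Flt3 had means below 20 in every group. Of 10 lymphocyte markers 8 were on the array, and Cd3e, Cd3d, Cd8a, Cd2 and Cd79b had means below 20 in every group. The others were brighter, with group means of 60.3 to 77.9 for Lck, 21.8 to 32.4 for Ms4a1 and 9.3 to 27.0 for Cd3g. Choroid plexus markers, which an area postrema dissection can carry along, summed to 1240.0 to 1380.2 in SHR, 794.0 to 974.8 in WKY and 1440.0 to 12125.2 on the SD arrays. Of these markers Enpp2 was higher in SHR than in WKY (1112.9 against 660.4, 0.74 log2, adjusted p = 9.14e-08), and the part of this tissue in the strain differences was not tested. Of 10 area postrema markers 7 were on the array. Th, Dbh, Calcr and Casr read at least 95.6 on every array and Ramp3 at least 51.8, while Glp1r and Avpr1a were dim, with lowest arrays of 19.5 and 24.3.

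Against SD control the marker lists differed in direction. Of all tested probe sets 9.43% were called higher and 10.4% lower in SHR, and 8.77% higher and 9.92% lower in WKY. Of the fibroblast and meningeal markers 7 of 8 tested were called lower in SHR and 4 of 8 in WKY, among them Igf2 (-1.31 and -0.78 log2) and Col3a1 (-1.16 and -0.88). Their sum was 4082.0 to 5153.3 in control arrays. Of 11 microglia and macrophage markers 3 were called higher in SHR and 6 in WKY, among them P2ry12 (0.81 and 0.98), Aif1 (0.61 and 1.00) and C1qa (0.41 and 0.75). Of 2 tested perivascular macrophage markers Mrc1 was called lower in both strains (-0.38 and -0.40, adjusted p = 0.0154 and 0.0109), while Lyve1, at 45.0 in SHR, 52.9 in WKY and 52.3 in control, was not. Hbb, a marker of blood, was lower in both (-0.48 and -0.51). Ttr, the defining marker of choroid plexus, averaged 78.8 in SHR, 102.6 in WKY and 2084.3 in control. The part of each in the differences of Cd74 and RT1-Da was not tested.

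Apart from the 10 genes, 16 probe sets of 11 other RT1 genes were on the array. In SHR against WKY 10 of them passed the filter and 2 were called, where 5.06% of all tested were called. They were RT1-DMa and the class I gene RT1-A3 at probe set 1371213_at (42.6 against 26.7, 0.46 log2, adjusted p = 0.0178). Of the class II beta chain RT1-Db1, partner of RT1-Da, probe set 1370383_s_at read 37.6 in SHR and 48.2 in WKY and was not called (-0.24, adjusted p = 0.44). Its other probe set, 1370382_at, lay below the filter and read 3.9 to 9.7 in SHR and 18.3 to 42.0 in WKY, without overlap.

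Against SD control 10 of these probe sets were tested in each strain. In SHR 7 were called, 1 higher and 6 lower, and in WKY 7 were called, 3 higher and 4 lower. Of all tested probe sets 19.9% were called in SHR and 18.7% in WKY. RT1-DMb, the other chain of DM, was higher in both strains (0.26 in SHR and 0.38 in WKY, adjusted p = 0.022 and 0.000916), and RT1-DMa was higher in WKY (0.37, adjusted p = 0.0108). RT1-T24-3 was higher in WKY (0.73, adjusted p = 0.0356) and missed the threshold in SHR (0.67, adjusted p = 0.0518). RT1-S3 was lower at all 4 of its probe sets in SHR and at 3 of them in WKY, with the smallest p at 1388212_a_at (-0.73 and -0.48, adjusted p = 2.69e-05 and 0.00273). RT1-Db1 1370383_s_at, at 74.0 in control, was lower in SHR (-0.71, adjusted p = 0.00812). RT1-T24-4 (1389734_x_at) read 15.9 to 31.9 in SHR, 3.4 to 22.9 in WKY and 228.4 to 345.6 on all SD arrays, a difference from control of -2.85 log2 in SHR and -3.12 in WKY (adjusted p = 5.00e-14 and 3.91e-15). It was below the filter in SHR against WKY and passed here only through the SD arrays, where it was high. Its calls, and the counts of 7 that include it, rest in part on that selection. In all of these differences from SD control, strain and array series cannot be told apart.

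RT1-CE16 also appears among the symbols of a probe set that names several genes, 1371267_at, whose order was opposite to that of the RT1-CE16 probe set: it read 3.4 to 5.0 in SHR and 25.8 to 56.5 in WKY.

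Of the 10 genes, 8 lie on chromosome 20 in the GRCr8 gene table, Cd74 on chromosome 18 and B2m on chromosome 3. The stretch from the first to the last RT1 gene holds 435 genes. In SHR against WKY, 99 probe sets of this stretch were tested and 15 were called, 15.2%. Without the genes described here 8 of 88 were called (9.09%), without any RT1 gene 6 of 78 (7.69%), and among all other probe sets with a mapped gene 633 of 13624 (4.65%). The 6 were Ltb, Lst1, Aif1, Abhd16a, Col11a2 and Hsd17b8. Lst1, a gene of leukocytes, read 36.7 in SHR and 96.2 in WKY (-1.07 log2, adjusted p = 7.75e-05). Aif1 is also a microglia marker of the list above, and its other tested probe set was not called (-0.08 log2).

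**Figure D4:**
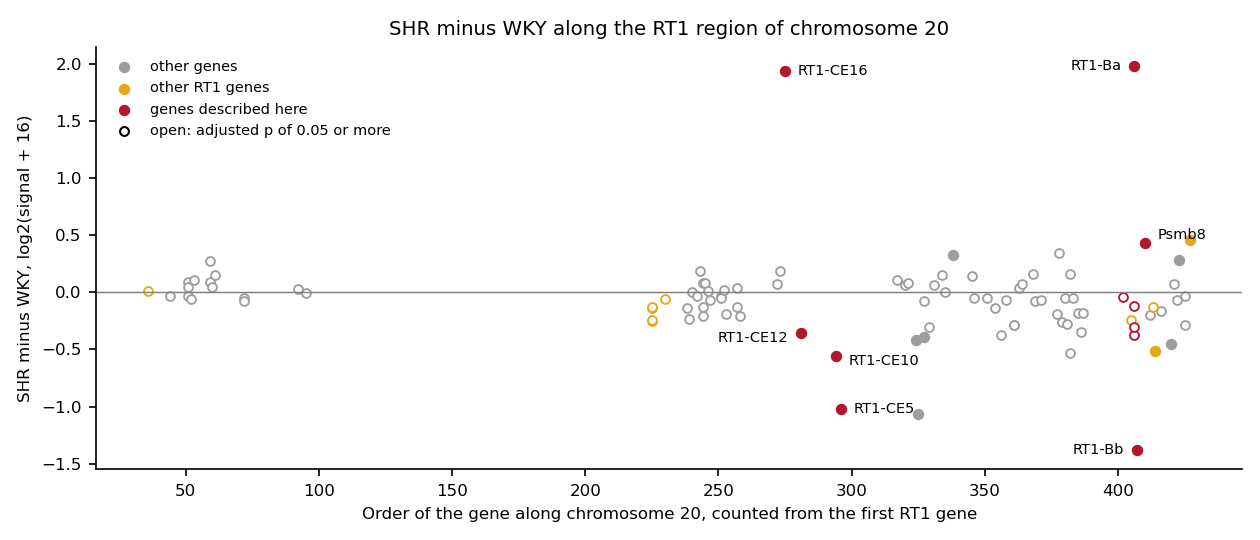
SHR minus WKY in log2(signal + 16) for the 99 tested probe sets of genes in the RT1 stretch of chromosome 20, by the order of the genes. Filled points have an adjusted p below 0.05; the calls furthest from 0 are RT1-Ba (1.98), RT1-CE16 (1.94), RT1-Bb (-1.38), Lst1 (-1.07) and RT1-CE5 (-1.02).

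Fasting and dehydration left no MHC probe set past the threshold in SD rats. Only part of the control arrays share a label text with the treated arrays, which limits both comparisons with control. In fasted against control 13 of the 19 were tested and 0 were called by limma, where 0.0215% of all tested probe sets (4) were called. At an unadjusted p below 0.05 there were 4, against 7.19% of all, and all 4 were lower in fasted rats. The groups did not overlap for 1 of the 13 tested, against 2.32% of all, and for 1 below the filter. B2m 1367595_s_at read 2503.9, 2331.6, 2221.5, 2288.4 and 2322.4 in fasted arrays, all below the lowest control array (2538.7), a difference of -0.15 log2 (95% interval -0.29 to -0.02, adjusted p = 0.636). Psmb8 read 45.6, 51.4, 51.2, 52.7 and 67.8, which overlapped control (-0.28, adjusted p = 0.682). RT1-Da (-0.29, adjusted p = 0.692) and RT1-Ba 1392334_at (-0.62, adjusted p = 0.557) were the other two. Cd74 differed from control by -0.03 (95% interval -0.29 to 0.22). The second probe set without overlap was the dim RT1-Bb 1371065_at, below the filter, which read 14.8 to 21.8 in fasted and 5.7 to 14.1 in control arrays.

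In dehydrated against control, which shares the control arrays, 13 were tested and 0 were called, where 0.166% of all (31) were called, and 1 had an unadjusted p below 0.05 against 11.7% of all. The groups overlapped at all 13 tested, where 6.68% of all tested did not, and at those below the filter. The smallest p was that of RT1-Ba 1377334_at, which read 77.7, 58.7, 50.9 and 91.8 in dehydrated and 89.2, 115.2, 84.1 and 106.1 in control arrays, with overlap (-0.44 log2, 95% interval -0.75 to -0.12, adjusted p = 0.266). For Cd74 the interval was -0.47 to 0.06 and for B2m 1367595_s_at -0.15 to 0.13. In dehydrated against fasted 0 of 13 were called, where 0.0322% of all (6) were called, with B2m 1367595_s_at the 1 at an unadjusted p below 0.05 (0.14, adjusted p = 0.463). The dehydrated arrays of B2m read 2473.4, 2315.7, 2856.3 and 2696.4 and overlapped both other groups. With plain eBayes, and under the other alternatives, the count of MHC calls was also 0 in these 3 comparisons.

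The rest of the pathway gave no call in the SD comparisons. Of 10 tested genes of class I supply and loading 9 had a negative difference in fasted rats, with a median of -0.10 log2 against 0.00 over all probe sets. The smallest p was that of Psmb10, the third immunoproteasome subunit (104.7 against 135.4, -0.32, adjusted p = 0.509). Ifi30, a lysosomal thiol reductase that prepares antigen for class II, read 570.2 in control, 409.0 in fasted and 429.5 in dehydrated rats, without overlap in either comparison (-0.48 and -0.40, adjusted p = 0.145 and 0.14). Ctss read 1236.9 in control and 1483.2 in dehydrated rats (0.26, adjusted p = 0.165), also without overlap.

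**Figure D5:**
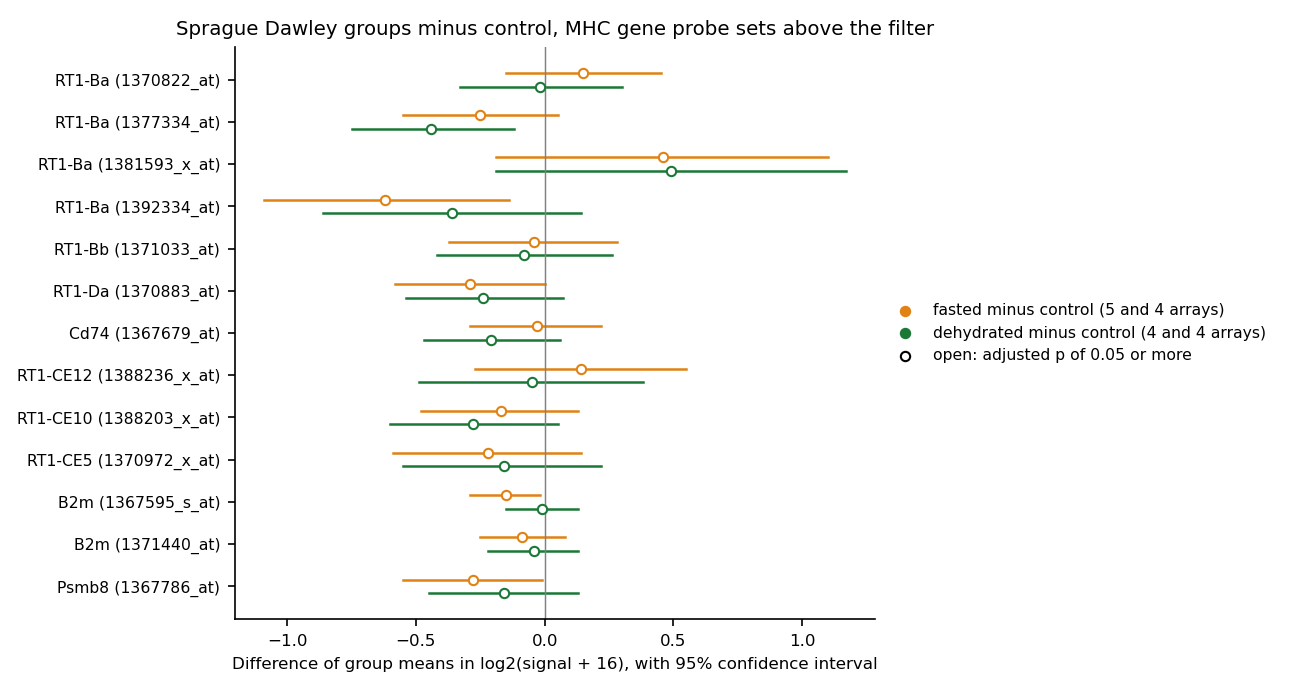
Fasted minus control and dehydrated minus control in log2(signal + 16) for the 13 MHC probe sets above the filter in the SD arrays, with 95% confidence intervals. No point is filled, since none has an adjusted p below 0.05; the differences lie between -0.62 (RT1-Ba 1392334_at, fasted) and 0.49 (RT1-Ba 1381593_x_at, dehydrated), and both comparisons use the same control arrays.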

How the data were processed

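Each probe set has 1 linear intensity per array, deposited by the authors from GCOS 1.2 according to the submitters' processing notes. How the software was set is not given in the sources used here. Every array had a mean of 100 once 2% of values were trimmed from each end, and medians of 39.81 to 44.48, so the values were not normalized again. The platform annotation named the probe sets, with symbols updated through the GRCr8 gene table. Of 31099 probe sets, 57 were controls and were dropped, 20832 had 1 symbol, 436 several and 9780 none.

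Signals became log2(signal + 16). The filter removed probe sets below the 40th percentile of mean log2 (a signal of about 29.0 in the strain fit and 27.4 in the SD fit). Tests were two-sided, by lmFit and eBayes (trend, robust) of limma 3.58.1 under R 4.3.3, with Benjamini-Hochberg adjustment; "plain eBayes" has neither option. SHR and WKY were fitted on their 10 arrays, SD contrasts on 13, and strains against SD control on all 23. The code was tested on simulated data. The genes, lists and motifs were chosen with earlier results of these data known. All probe sets of the 10 genes are given. Each list allowed up to 4 called genes to be named by smallest p, or 2 where none was called, and other RT1 genes were named where called. The other genes of the RT1 stretch, and dim or uncalled RT1 probe sets, were named after their values were seen. Arrays with the same number were not paired. In the SD groups they did not deviate together. Between SHR and WKY their deviations correlated at -0.00603 to 0.273, highest for array 2, against -0.212 to 0.169 for arrays of different number. Alternatives were pseudocounts of 1 and 64, other filters, quantile normalization, plain eBayes, array weights, covariates and subsets of arrays. Annotation, motifs, alignments and plots used Python 3.11.15, pandas 2.3.3, scipy 1.17.1, Biopython 1.88 and matplotlib 3.10.9.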

Additional observations from a re-analysis of the deposited data

Results flagged for a closer look

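Single arrays stood apart from their group in 6 of the 95 groups of values examined, by the gap to the nearest array relative to the range, which chance gives in about 1 in 20 groups. Dehydrated array 3 read 16.9 at RT1-Ba 1392334_at, where the others read 46.7 to 49.8. For RT1-CE10, SHR array 2 read 23.4 (others 36.2 to 39.6) and control array 1 read 54.6 (others 36.9 to 39.5). At the dim RT1-CE5 probe sets, control array 3 read 4.3 at 1371209_at (others 9.0 to 10.0), control array 4 read 6.1 at 1388254_a_at (others 0.4 to 1.1) and WKY array 3 read 24.4 at 1388255_x_at (others 40.9 to 49.4).

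A signal above the control arrays also appeared in a probe set left out of the comparisons because it names several genes: RT1-A;RT1-CE16;RT1-A1 1371267_at averaged 38.1 in WKY, where the control arrays read 3.9 to 13.5.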

How the results depend on the processing

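With all arrays kept, counts of MHC calls stayed within 1.5 times of the reported count in SHR against WKY and moved further in the comparisons with SD control. With the filter at the 60th percentile, under which fewer probe sets are tested, 3 were called in SHR and 4 in WKY. In WKY the count was 5 with the Gapdh ratio as a covariate and 5 with only control arrays 3 and 4, and the cause was not tested. Leaving out 1 array at a time gave 5 to 8 MHC calls in SHR against WKY, where 9 were reported and 5 were left without SHR array 1 and without SHR array 3, 4 to 6 in SHR and 6 to 8 in WKY against SD control, and 0 in each SD comparison. Over all probe sets these fits gave 741 to 1012 calls in SHR against WKY, 2 to 6 in fasted against control, 9 to 42 in dehydrated against control, 2 to 10 in dehydrated against fasted, 2867 to 3404 in SHR against SD control and 2685 to 3281 in WKY against SD control.

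Among all probe sets, fasted against control gave 2 calls without the filter and 0 with only control arrays 3 and 4. Dehydrated against control gave 15 without the filter, 74 with all 23 arrays in 1 model and 2 with only control arrays 3 and 4. Dehydrated against fasted gave 2 with the Gapdh ratio as a covariate. The cause was not tested. With the replicate number as a block the counts were 15 in dehydrated against control and 1 in dehydrated against fasted. Under it 9 MHC probe sets were called in SHR against WKY. This block was not used, since same-numbered arrays did not deviate together in the SD groups. Between SHR and WKY they correlated at 0.273 or less. The difference of B2m 1367595_s_at between SHR and SD control reversed to 0.18 under quantile normalization, where the cause was not tested. Over all results and alternatives, 1510 values kept their side of the threshold, 52 lost a call and 8 gained one. With 4 or 5 arrays a group, precision is limited, and background compresses differences at dim probe sets.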
